A study of Mus musculus with 10 samples.

Results

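Aminoacyl-tRNA synthetases attach each amino acid to its tRNA and so supply the ribosome with its substrates. Mammalian cells keep separate sets of these enzymes, all encoded in the nucleus, for the cytosol and for the mitochondrion, where they serve the small number of proteins translated from mitochondrial DNA. Some cytosolic enzymes sit together in the multisynthetase complex, held by scaffold proteins, and several cytosolic synthetase genes belong to the transcriptional program that the factor ATF4 drives when amino acids are scarce. The genes described here are the 40 synthetase and partner genes among the 13091 genes measured, taken by their symbols: the synthetase symbols ending in "ars", with or without a 2, together with Eprs, Farsa, Farsb, Aimp1, Aimp2 and Pstk. They comprise 20 cytosolic enzymes, of which 8 belong to the multisynthetase complex and 12 are free of it, 17 mitochondrial enzymes, the scaffold proteins Aimp1 and Aimp2, and Pstk, the kinase that prepares seryl-tRNA for conversion to selenocysteinyl-tRNA. Gars and Kars, which serve both compartments, were counted as cytosolic.

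RNA sequencing was carried out on neutrophils derived from bone marrow progenitors of 129-SVEV mice that had been immortalized with an estrogen-dependent HoxB8 and grown from single sorted cells. There were 2 Vim+/+ and 3 Vim-/- biological replicates, the latter lacking the intermediate filament protein vimentin (the labels say knockdown, the study knockout). Each replicate number of the labels had 1 library without stimulation and 1 library after 1 hour with 25 ng/mL LPS, the bacterial lipopolysaccharide sensed by TLR4. The labels do not say whether each replicate is a separate clone. All 10 libraries share the immortalizing transgene and the differentiation protocol. The deposited values were fold changes from a model over all libraries with 4 covariates and 2 residual degrees of freedom, so no value per library can be given. The standard error (SE) of each fold change is the only error held, and it may not carry all of the spread between replicates. Vim itself had a log2 fold change, Vim-/- over Vim+/+, of -13.56 without stimulation (SE 0.33) and -12.44 after LPS (SE 0.24), the direction the genotype labels state.

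The cytosolic enzymes were on the whole more abundant than the mitochondrial ones, although the ranges overlapped. Level is given here as the authors' mean normalised count over the 10 libraries, per kilobase of the longest annotated transcript. The 20 cytosolic enzymes had a median level of 1033 normalised counts per kb and ranged from 281 for Iars, the isoleucyl enzyme, to 3045 for Nars, the asparaginyl enzyme. The 17 mitochondrial enzymes had a median of 145 and ranged from 15.4 for Mars2 to 3699 for Lars2, the mitochondrial leucyl enzyme. Lars2 stood apart from its class, with the highest level of all 40 members. The other 16 mitochondrial enzymes reached at most 363, the level of Iars2. Whether all reads counted for Lars2 came from its own mRNA was not tested. The median over the 12046 genes with an annotated length was 310, so most cytosolic enzymes lay above it and most mitochondrial enzymes below. Without regard to length, the smallest mean count among the members was 113 for Ears2, and all 40 therefore stood above a mean count of 100.

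**Figure D1:**
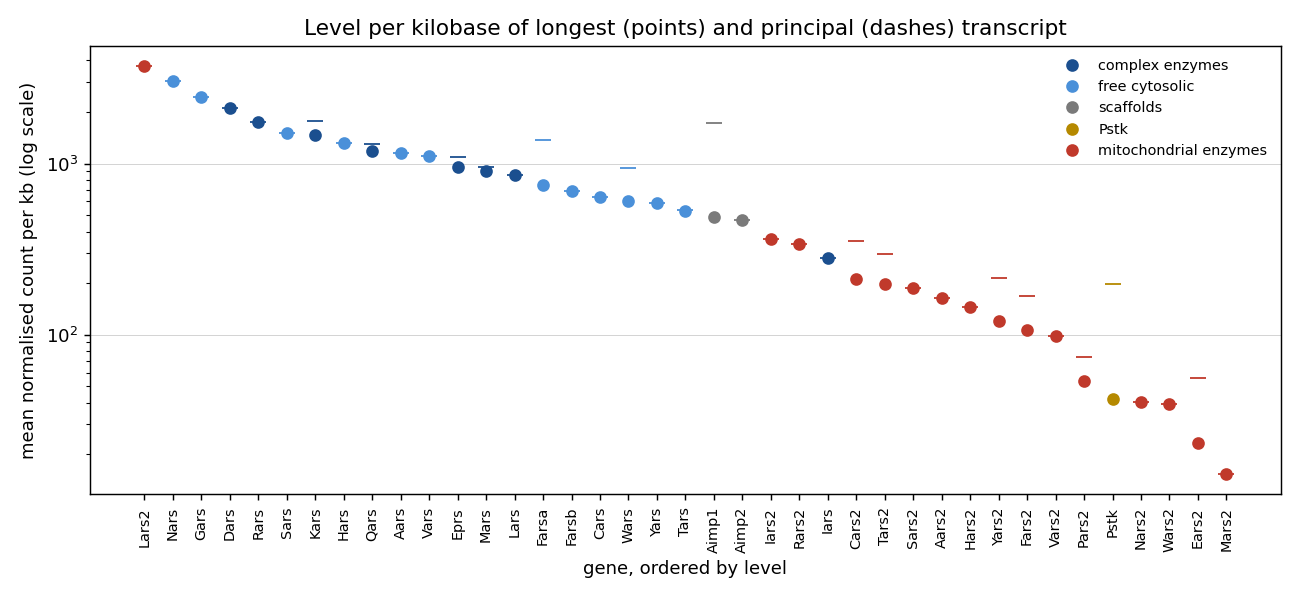
Mean normalised count per kilobase (log axis) of 39 of the 40 members in descending order, colored by class, with points for the longest annotated transcript and dashes for the principal one. Lars2 leads at 3699 counts per kb of its longest transcript, and the cytosolic enzymes other than Iars lie above every other mitochondrial enzyme. No error bars are drawn because values per library were not held.

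The level order depended on transcript length for some genes. On the principal transcript the level of Aimp1 went from 488 to 1715 normalised counts per kb, Pstk from 42.3 to 197 and Ears2 from 23.1 to 55.4, while Lars2, Nars and Mars2 kept the same length and so the same value. Neighbours in the order cannot be separated by a test, since the spread of the level over libraries was not given.

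Without stimulation, 3 of the 40 members differed between genotypes at an adjusted p under 0.05 in the authors' DESeq2 Wald test, and all 3 were mitochondrial enzymes. Fars2, which charges mitochondrial tRNA with phenylalanine, fell 3.62-fold in Vim-/- neutrophils. Hars2 and Iars2, its histidyl and isoleucyl counterparts, rose 1.85-fold and 1.45-fold. Among all genes tested 18.8% passed, so the share of members that passed, 7.50%, was not above the background, and the share of mitochondrial enzymes, 3 of 17 or 17.6%, was near it. The comparison asks which transcripts differ with vimentin before any stimulus.

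The fold changes of the 3 genes differed in size and precision. For Fars2 the log2 fold change was -1.85 (SE 0.42, adjusted p = 0.000209), with a 95% interval from -2.67 to -1.03. For Hars2 it was 0.88 (SE 0.31, adjusted p = 0.0260), with an interval from 0.28 to 1.49. For Iars2 it was 0.54 (SE 0.19, adjusted p = 0.0281), with an interval from 0.17 to 0.91. Fars2 was thus the only one of them whose whole interval lay beyond a 2-fold change, and its Wald statistic was larger in size than that of 95.5% of all genes. Just beyond the threshold stood Aars2, the mitochondrial alanyl enzyme, with -0.73 (SE 0.28, adjusted p = 0.0505) and Mars2, the methionyl enzyme, with 1.16 (SE 0.48, adjusted p = 0.0730).

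None of the 20 cytosolic enzymes passed without stimulation, and 1 of them, Iars, had an unadjusted p under 0.05. Their log2 fold changes ran from -0.19 for Qars, the glutaminyl enzyme, to 0.50 for Iars (SE 0.24, adjusted p = 0.126), with a median of 0.09 beside 0.08 over all genes. Every one of the 20 intervals lay within a 2-fold change in either direction, the lowest bound being -0.50 and the highest 0.96. The 8 enzymes of the multisynthetase complex had a median of 0.04 and the 12 free enzymes one of 0.14. The scaffold Aimp1 had -0.45 (SE 0.19, adjusted p = 0.0822) and Aimp2 0.34 (SE 0.31, adjusted p = 0.498). Pstk had -0.56, with an interval from -1.43 to 0.30 that leaves a change of over 2-fold possible.

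**Figure D2:**
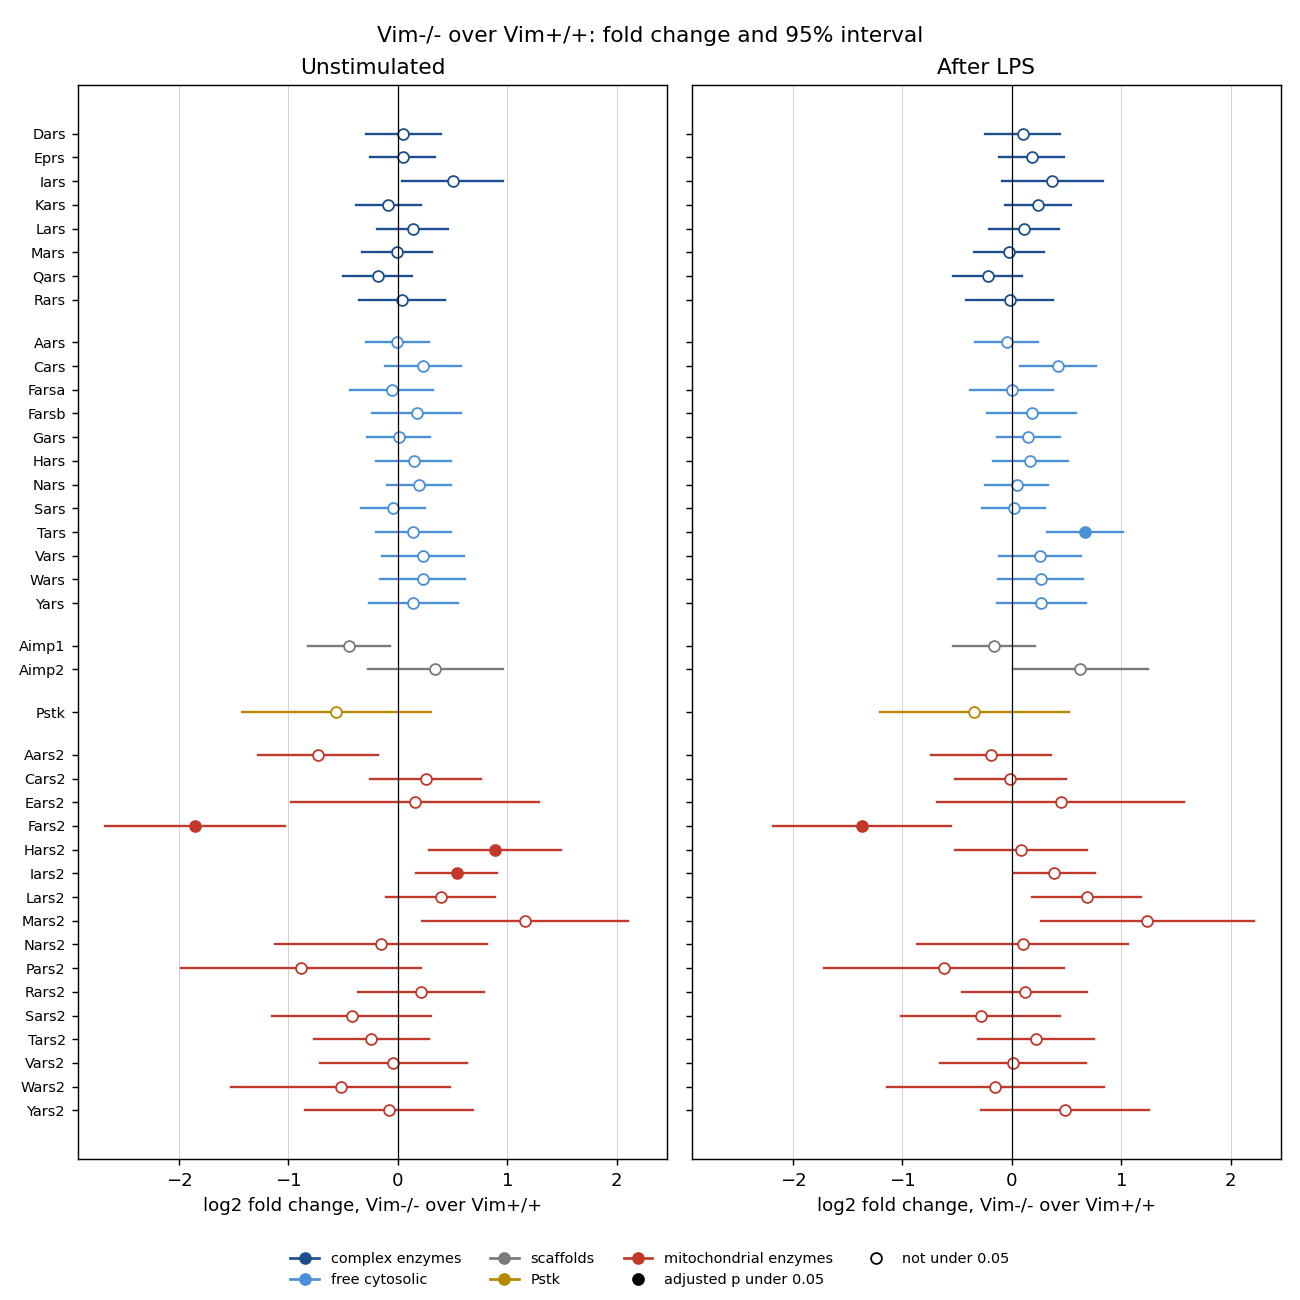
Log2 fold change of Vim-/- over Vim+/+ (x axis) for 39 of the 40 members, without stimulation on the left and after LPS on the right, with 95% intervals as lines and filled points for an adjusted p under 0.05. Fars2 lies lowest in both panels at -1.85 and -1.37, Tars is filled after LPS at 0.67, and in the left panel the median SE is 0.34 for mitochondrial and 0.17 for cytosolic enzymes.

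The wider scatter of the mitochondrial enzymes came with lower median counts. Their median absolute log2 fold change without stimulation was 0.39 against 0.14 for the cytosolic enzymes, but their median SE was 0.34 against 0.17 and their median mean count 436 against 3501. Scaled by the SE, the median absolute Wald statistic was 1.02 for mitochondrial enzymes, 0.74 for cytosolic enzymes and 1.23 over all genes. Of the 17 mitochondrial enzymes 8 had intervals within a 2-fold change, and those of the others, Fars2 and Hars2 among them, reached beyond it.

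The calls for Hars2 and Iars2 moved with the centring of the fold changes. With each fold change taken relative to the median of genes with similar transcript length, 0 members were higher and 3 lower (Aars2, Aimp1 and Fars2), in place of 2 higher and 1 lower. Across all genes the Wald statistics were wider than a standard normal, with a robust spread of 1.83, and after division by that spread none of the 40 members passed (Fars2, adjusted p = 0.283).

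Fars2 lies on chromosome 13 at 36117412 to 36726280 (GRCm38, plus strand, GENCODE M21), head to head with Lyrm4, which encodes a factor of mitochondrial iron-sulfur cluster assembly. The annotated transcript starts of the pair lie 286 bases apart in RefSeq, and both genes were lower in Vim-/- cells without stimulation. Lyrm4 had a log2 fold change of -1.73 without stimulation (SE 0.55, adjusted p = 0.0147) and -1.16 after LPS (SE 0.56, adjusted p = 0.189). The other genes measured within 250 kb of Fars2 did not share one direction. Cdyl, a chromodomain protein, was higher at 0.72 (SE 0.21, adjusted p = 0.00578), F13a1, a subunit of coagulation factor XIII, was lower at -2.19 (SE 0.69, adjusted p = 0.0132), and Rpp40, an RNase P subunit, had -0.25 (SE 0.84). These neighbours were examined after the value of Fars2 was known. The longest Fars2 transcript shares no run of 50 bases with Lyrm4 transcripts, but other Fars2 transcripts were not searched. Fars2 and Lyrm4 overlap at their ends in GENCODE, and whether counting used strand was not given in the sources used here. Sharing of reads between them was not tested.

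Reads of the other changed genes could be split with neighbours. Iars2, on chromosome 1 at 185284726 to 185329396 on the minus strand, shares 36.6% of its 50-base words with Rab3gap2, a Rab regulator transcribed from the opposite strand, so the value of Iars2 is uncertain if counting ignored strand. Rab3gap2 itself had a log2 fold change of 0.22 (adjusted p = 0.331). Hars2 shares 4.44% of its words with its neighbour and paralog Hars, which had 0.14 (SE 0.17, adjusted p = 0.631). Of the genes measured within 250 kb of Hars2, Ankhd1, an ankyrin repeat protein, was the one that passed without stimulation, at 0.63 (SE 0.21, adjusted p = 0.0195), and it had 0.02 after LPS. Pstk shares 87.7% of its words with other transcripts, chiefly Ikzf5, and Aimp2 shares 38.6% with Eif2ak1, so their values carry the same uncertainty. Reads of Aars and Farsb could be split as well, since Aars shares 22.4% of its words with Exosc6 and Farsb 10.1% with Sgpp2.

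After LPS, 2 of the 40 members differed between genotypes, against 11.0% of all genes tested. Fars2 was again lower in Vim-/- neutrophils, 2.59-fold, and Tars, the cytosolic threonyl enzyme, was 1.59-fold higher. The log2 fold change of Fars2 was -1.37 (SE 0.41, adjusted p = 0.0136), with an interval from -2.19 to -0.56. That of Tars was 0.67 (SE 0.18, adjusted p = 0.00322), with an interval from 0.32 to 1.01. The gene for Tars lies on chromosome 15 at 11382301 to 11399665 on the minus strand, overlaps no other annotated gene and shares 0.272% of its 50-base words with other transcripts. Lars2 had 0.68 (SE 0.25, adjusted p = 0.0588), Mars2 1.24 (SE 0.50, adjusted p = 0.0894) and Aimp2 0.63 (SE 0.32, adjusted p = 0.215).

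Hars2 and Iars2 did not pass after LPS. Hars2 had 0.08 (SE 0.31, adjusted p = 0.921) and Iars2 0.39 (SE 0.19, adjusted p = 0.194). Tars in turn had 0.14 without stimulation (SE 0.18, adjusted p = 0.632). These contrasts between states were tested as differences of LPS responses, given further on.

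The 19 other cytosolic enzymes ran from -0.22 for Qars to 0.42 for Cars, the cysteinyl enzyme (SE 0.18, adjusted p = 0.114). The median of the cytosolic class was 0.16 beside 0.03 over all genes, and 16 of 20 values were above 0 where 53.4% of all genes were. Of the mitochondrial enzymes 11 of 17 were above 0, with a median of 0.10. The Wald statistics of all genes again spread more widely than a standard normal (median 0.12, robust spread 1.50). After subtraction of that median and division by that spread no member passed (Tars, adjusted p = 0.286).

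Each mitochondrial enzyme was also set beside the cytosolic enzyme for the same amino acid, in 17 pairs, to compare the compartments gene by gene. Farsa stood for the cytosolic phenylalanyl enzyme and Eprs for both the glutamyl and prolyl activities. The difference in log2 fold change, mitochondrial minus cytosolic, had a 95% interval that left out 0 in 4 pairs without stimulation and in 2 pairs after LPS, with no adjustment for the number of pairs. Fars2 minus Farsa was -1.80 without stimulation (interval -2.70 to -0.89) and -1.37 after LPS (interval -2.27 to -0.48). Farsa itself had -0.06 and 0.00, so the phenylalanyl enzymes of the compartments were apart in both states. Mars2 minus Mars was 1.17 (interval 0.17 to 2.16) and 1.26 (interval 0.24 to 2.29). Aars2 minus Aars at -0.72 and Hars2 minus Hars at 0.74 left out 0 without stimulation alone.

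The pairs showed no common direction. Without stimulation 8 differences were above 0 and 9 below, with a median of -0.22, and after LPS the counts were again 8 and 9, with a median of -0.09. The genotype comparisons in both states and the LPS comparisons come from the same 10 libraries, so values set side by side are not independent.

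**Figure D3:**
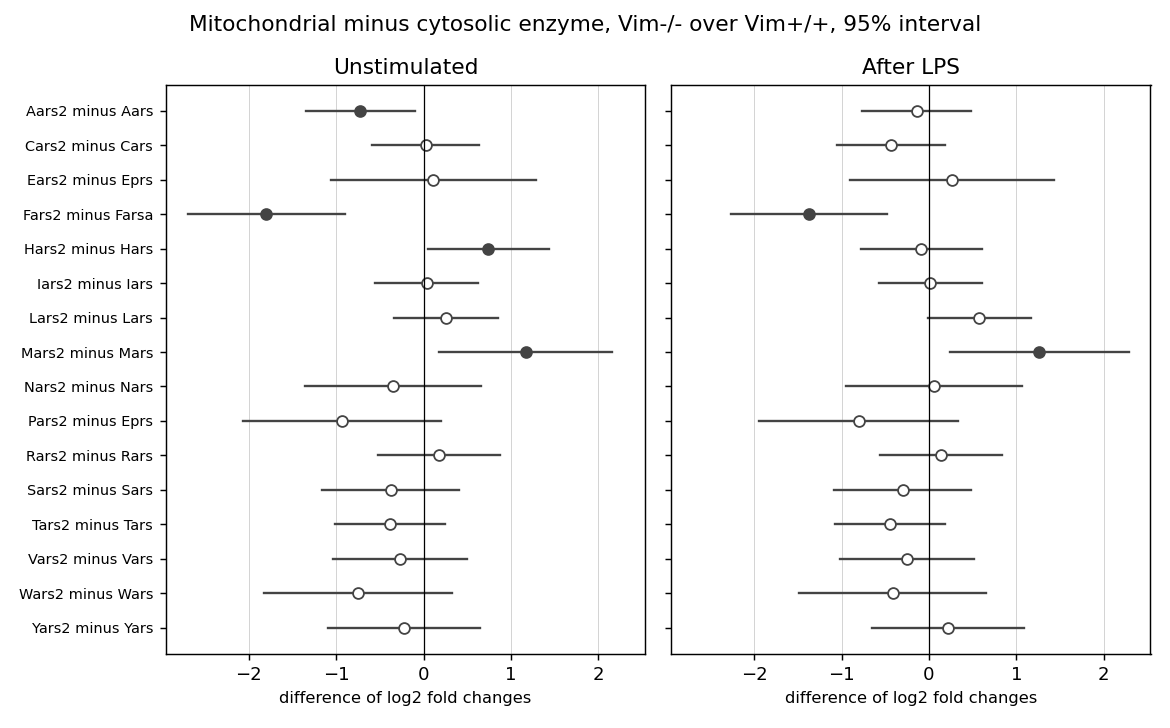
Difference of the log2 fold changes (Vim-/- over Vim+/+) of the mitochondrial and the cytosolic enzyme for the same amino acid (x axis) in 16 of the 17 pairs, with 95% intervals and filled points where the interval leaves out 0. Fars2 minus Farsa at -1.80 and -1.37 and Mars2 minus Mars at 1.17 and 1.26 are filled in both panels, and the remaining points lie on both sides of 0.

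LPS changed no member past the threshold in either genotype. In Vim+/+ cells 0 of 40 passed the DESeq2 Wald test, where 2.17% of all genes tested passed. At an unadjusted p under 0.05 there were 3 members, or 7.50%, beside 11.7% of all genes. The 3 were Lars2 with -0.56 (SE 0.27, adjusted p = 0.387), Tars with -0.38 (SE 0.19, adjusted p = 0.419) and Iars with 0.51 (SE 0.25, adjusted p = 0.399). In Vim-/- cells 0 of 40 passed, where 2.21% of all genes tested passed. At an unadjusted p under 0.05 there was 1 member, or 2.50%, beside 7.23% of all genes. That gene was Eprs, the fused glutamyl and prolyl enzyme, with 0.34 (SE 0.14, adjusted p = 0.332). No member passed under any of the 6 other settings tried.

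The intervals of most cytosolic enzymes bounded their responses to 1 hour of LPS. These bounds hold only as far as the SE carries the spread between replicates. All 20 cytosolic enzymes had intervals within a 2-fold change in Vim-/- cells and 19 of 20 in Vim+/+ cells, the exception being Iars with an upper bound of 1.01. Their median log2 response was 0.07 in Vim+/+ and 0.12 in Vim-/- cells, beside 0.01 and -0.02 over all genes. For the mitochondrial enzymes the medians were 0.16 and 0.20, but 8 of 17 intervals in Vim+/+ and 12 of 17 in Vim-/- cells lay within a 2-fold change. Fars2 had the highest response in Vim-/- cells at 0.70 (SE 0.38, adjusted p = 0.756).

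**Figure D4:**
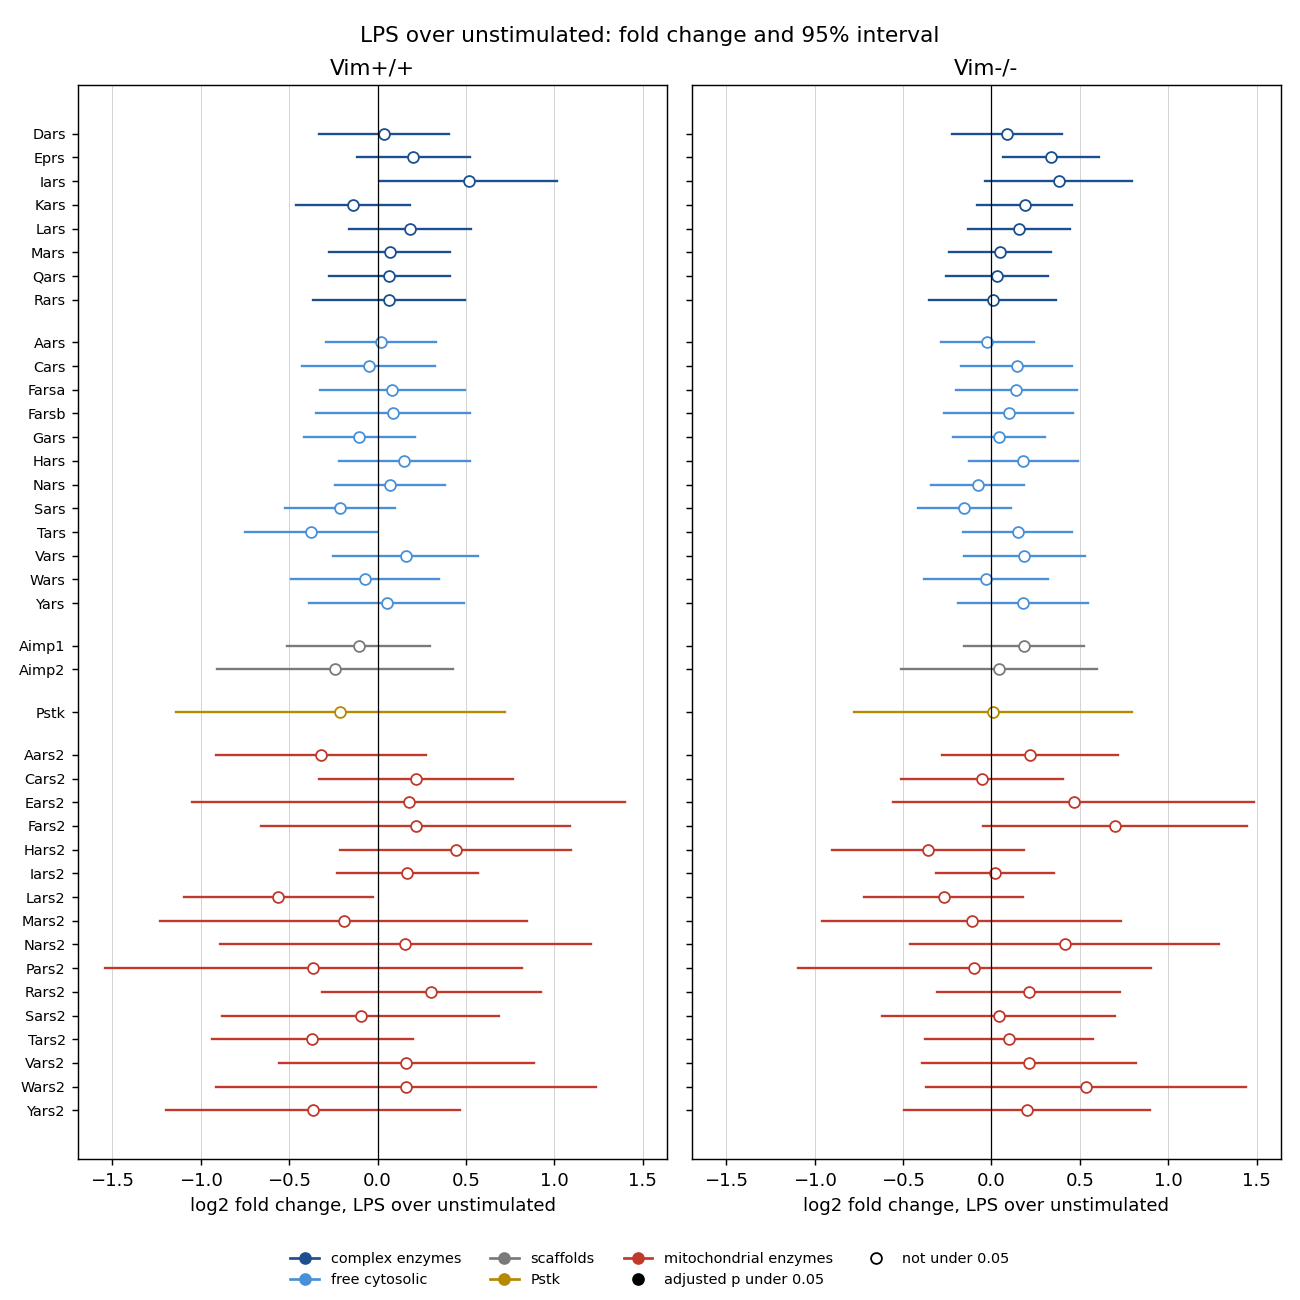
Log2 fold change of LPS over unstimulated (x axis) for 39 of the 40 members in Vim+/+ cells on the left and Vim-/- cells on the right, with 95% intervals. No point is filled, since no member had an adjusted p under 0.05, and Iars leads the left panel at 0.51 and Fars2 the right one at 0.70.

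The LPS response did not differ detectably between genotypes for any member. The difference of responses, Vim-/- minus Vim+/+, was tested with a two-sided normal test adjusted over all genes by Benjamini-Hochberg, and 0 of 40 members passed, against 10 of all genes or 0.0764%. An unadjusted p under 0.05 was held by 1 member, Tars, or 2.50%, beside 6.04% of all genes. For Tars the difference was 0.53 (SE 0.25, adjusted p = 0.797), made of -0.38 in Vim+/+ and 0.15 in Vim-/- cells. For Hars2 it was -0.80 (SE 0.43, adjusted p = 0.860), made of 0.44 and -0.36. So the passing of Hars2 and Iars2 only without stimulation, and of Tars only after LPS, is not shown to be a difference between the states.

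A motif of the amino acid response was found in promoters of 5 cytosolic enzymes. RefSeq promoter windows of 300 bases on GRCm38.p6, from 250 bases before to 50 after the start, were held for 30 of the 40 members (Mars as Mars1). The members without an entry included Cars, Hars, Hars2, Lars, Nars, Pars2, Rars, Vars and Wars. The composite C/EBP-ATF element, searched as TGATGNAA on either strand, stood in 5 of 13 cytosolic enzymes (38.5%), 0 of 14 mitochondrial enzymes and 308 of the 10146 measured genes with an entry (3.04%), or 3.97% of all 32851 windows. Of the 24 stress and amino acid response genes with an entry 7 held it (29.2%). A match describes the letters and does not show a bound site. A match in each of the 5 genes is shown with 10 bases on either side, 5′ to 3′ on the strand of the gene, with the motif in capitals, because these are the members in which the motif was found.
Aars, chr8:111033841-111033868 (+), from base 10 after the start: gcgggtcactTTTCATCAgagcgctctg
Gars, chr6:55037961-55037988 (+), from 30 bases before the start: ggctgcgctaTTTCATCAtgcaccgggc
Iars, chr13:49682127-49682154 (+), from base 8 after the start: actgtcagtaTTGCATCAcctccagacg
Tars, chr15:11399656-11399683 (-), from 15 bases before the start: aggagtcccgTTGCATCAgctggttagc
Yars, chr4:129189896-129189923 (+), from base 4 after the start: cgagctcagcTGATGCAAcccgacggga

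The motif shown was on the reverse strand in all of these but Yars, the tyrosyl enzyme. Tars, the cytosolic enzyme that was higher in Vim-/- cells after LPS, was among the 5, and its upstream stretch outside all annotated exons is shown for that reason, with the motif in capitals at its end.
Tars, chr15:11399666-11399908 (-), 250 to 8 bases before the start: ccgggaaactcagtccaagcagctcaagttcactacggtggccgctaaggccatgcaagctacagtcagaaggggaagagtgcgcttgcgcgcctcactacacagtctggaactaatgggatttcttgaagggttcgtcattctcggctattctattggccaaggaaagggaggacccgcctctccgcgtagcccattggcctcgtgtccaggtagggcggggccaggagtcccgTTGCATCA

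Of the 5 genes shown with the motif, 1 passed after LPS and 4 had values above 0. Among all 20 cytosolic enzymes 1 passed and 16 were above 0. Of all genes tested 11.0% passed, and 53.4% of all genes were above 0. After LPS the genotype log2 fold change was 0.67 for Tars, 0.37 for Iars (adjusted p = 0.369), 0.27 for Yars (adjusted p = 0.497), 0.15 for Gars (adjusted p = 0.610) and -0.05 for Aars (adjusted p = 0.902). Without stimulation the same genes had 0.14, 0.50, 0.14, 0.01 and -0.01, and none passed.

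Of the 26 measured genes of the amino acid and stress response list, 3 were higher and 3 lower in Vim-/- cells without stimulation, a share of 23.1% beside 18.8% of all genes tested, and the median was 0.01. They were led by Ppp1r15a, a phosphatase subunit that ends the stress response, at -0.80 (SE 0.20, adjusted p = 0.000832), Slc7a5, a leucine transporter subunit, at 0.53 (SE 0.14, adjusted p = 0.00141) and Ddit4, an mTORC1 inhibitor, at -0.49 (SE 0.14, adjusted p = 0.00348). After LPS 5 were higher and 2 lower, 26.9% beside 11.0% of all genes tested, with a median of 0.20. Psat1, of serine synthesis, was higher at 0.59 (SE 0.16, adjusted p = 0.00346), as was Shmt2, the mitochondrial serine hydroxymethyltransferase, at 0.58 (SE 0.17, adjusted p = 0.00831), whereas Ppp1r15a was lower at -0.65 (SE 0.19, adjusted p = 0.0114). Atf4 itself had 0.04 without stimulation and 0.26 after LPS (SE 0.16, adjusted p = 0.337).

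LPS moved members of that list although it moved no synthetase past the threshold. In Vim+/+ cells 4 rose and 2 fell, 23.1% of the list beside 2.17% of all genes tested. Among those that rose were Ppp1r15a at 1.97 (SE 0.21, adjusted p = 3.92e-18), Ddit4 at 0.71 (SE 0.15, adjusted p = 0.000159) and the cystine transporter Slc7a11 at 0.99 (SE 0.21, adjusted p = 0.000219). The 2 that fell were Chac1 at -1.52 (SE 0.35, adjusted p = 0.00113) and Sesn2 at -0.73 (SE 0.18, adjusted p = 0.00363). Of the 26 genes 17 were below 0, with a median of -0.14. In Vim-/- cells 3 rose, 11.5% beside 2.21% of all genes tested, namely Ppp1r15a at 2.11 (SE 0.18, adjusted p = 5.94e-30), Ddit4 at 0.76 (SE 0.12, adjusted p = 1.1e-07) and Nupr1, a stress-induced chromatin protein, at 1.13 (SE 0.31, adjusted p = 0.0188).

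The steps before and after charging were compared with the same tests. Of 24 genes of tRNA maturation and export, 1 was higher and 1 lower without stimulation, 8.33% beside 18.8% of all genes tested, and after LPS 1 was higher, 4.17% beside 11.0%. Ddx1, of the tRNA ligase complex, was higher both without stimulation, at 0.53 (SE 0.18, adjusted p = 0.0201), and after LPS, at 0.76 (SE 0.18, adjusted p = 0.000507). Hsd17b10, a subunit of mitochondrial RNase P, was lower without stimulation at -0.56 (SE 0.18, adjusted p = 0.0178). Of 13 other charging and editing genes 1 passed without stimulation, or 7.69%, and 0 after LPS, where 2 had an unadjusted p under 0.05 (15.4% beside 22.1% of all genes). The gene that passed was Dtd1, a D-aminoacyl-tRNA deacylase, at 3.19 with a wide error (SE 1.06, adjusted p = 0.0193), and it had 0.53 after LPS (adjusted p = 0.734).

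The cytosolic elongation factors fell in Vim-/- cells without stimulation, where none of the cytosolic synthetases passed. Both results are those of the deposited test. The elongation factors were not retested with the rescaled Wald statistic under which no member passed. Eef1a1 delivers charged tRNA to the ribosome, Eef1b2, Eef1d and Eef1g are subunits of its nucleotide exchange factor, and Eef2 drives translocation. Of 9 elongation factors 5 fell and 0 rose, where 6.15% of all genes tested were lower, with a median of -0.48, and the 5 were the cytosolic members of the list. Eef1b2 had -0.88 (SE 0.17, adjusted p = 7.4e-06), Eef1g -0.62 (SE 0.15, adjusted p = 0.000511) and Eef1a1 -0.48 (SE 0.13, adjusted p = 0.0021). After LPS Eef1b2 had -0.68 (SE 0.17, adjusted p = 0.00142) and the mitochondrial factor Tsfm 0.86 (SE 0.30, adjusted p = 0.0442), and the other 7 did not pass.

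The cells carried neutrophil transcripts together with those of other granulocytes, and cell type markers differed between genotypes beside the changes above. All 11 mature neutrophil markers were measured, led by S100a9 with a mean count of 1290830, but the eosinophil granule genes Prg2 and Epx also had mean counts of 268319 and 142776. Of all genes tested 12.6% were higher and 6.15% lower in Vim-/- cells without stimulation, and 6.68% and 4.35% after LPS. Of the 11 neutrophil markers 5 were higher in Vim-/- cells without stimulation and 2 after LPS, led by Camp at 0.95 (SE 0.18, adjusted p = 3.31e-06) and 1.16. Of 8 progenitor and cycling markers 3 were higher and 1 lower without stimulation, with Mki67 at 1.20 (SE 0.25, adjusted p = 3.49e-05) and Cd34 at -1.01 (SE 0.18, adjusted p = 1.33e-06), and after LPS 4 were higher and 1 lower. Of 6 monocyte markers 2 were lower without stimulation, with Csf1r at -0.93, and after LPS 2 were lower and 1 higher, Mrc1 at 4.15 with a wide error (SE 1.46, adjusted p = 0.0424). Of 5 mast cell, basophil and eosinophil markers 2 were lower in each state, with the mast cell protease Cpa3 at -0.96 and -0.72 and the eosinophil surface marker Siglecf at -0.79 (adjusted p = 0.000546) and -0.65 (adjusted p = 0.00947). The abundant eosinophil granule genes did not pass, with Prg2 at 0.29 and 0.66 and Epx at 0.67 and 1.01. Of 2 measured lymphocyte markers Nkg7 was lower at -1.63 without stimulation, and after LPS both were lower, Nkg7 at -1.46 (adjusted p = 1.32e-07) and Cd79a at -4.19 with a wide error (SE 1.04, adjusted p = 0.00139). No marker passed in either LPS comparison. In such bulk samples fewer cells of a type and less RNA per cell cannot be told apart, and the part of these shifts in the values of Fars2, Hars2, Iars2 and Tars was not tested.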

How the data were processed

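Polyadenylated RNA of 10 libraries was sequenced by the study's authors, who trimmed reads with Cutadapt 4.4, aligned them to mm10 with STAR 2.7.10b, estimated 4 RUVSeq covariates and fitted DESeq2 1.26.0 (versions per the submitters' processing notes). The counting annotation and strand setting were not given in the sources used here. The deposited files are the authors' 4 tables of comparisons, and their own comparison columns are what was used. The deposited signal is baseMean, the mean normalised count over libraries. The deposited log2 fold changes and standard errors come from the authors' model, the Wald score is their quotient, and the deposited p-values are adjusted by the authors over the genes given an adjusted p in each table, 12837 in both genotype comparisons, 13091 for LPS in Vim+/+ and 12329 in Vim-/- cells. Depth per library is unknown, and 4 groups with 4 covariates leave 2 residual degrees of freedom. Replicate numbers recur in both states, but the labels do not say whether each is a separate clone, and p-values then measure only the spread between these samples, which may be technical in part.

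A count model was planned only for counts per sample, so the deposited Wald test was used at an adjusted p under 0.05. The sign of the genotype comparisons was set so that positive values mean higher in Vim-/- cells, and intervals are 95% normal intervals. Differences of LPS responses used both standard errors, an approximation since their covariance is not known. Positions, lengths and shared 50-base words came from GENCODE M21, and 92.0% of genes had a length. Shared words were counted in the longest transcript of each member alone. Promoters came from RefSeq on GRCm38.p6. Alternatives were a fold threshold, adjustment over every gene, a baseMean of at least 100, and centring on the median of all genes or on 20 bins of transcript length. In a further one the Wald statistic was centred on its median over all genes and divided by its robust spread. Scripts were tested on simulated data and used Python 3.11.15, numpy 2.4.6, scipy 1.17.1, pandas 2.3.3 and matplotlib 3.10.9.

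The gene family, gene lists and tests were chosen with earlier results of these data known, and membership of the family then follows from gene symbols. Values were given for members passing in any comparison and for extremes of fold change and level, and for up to 3 genes of smallest adjusted p in each other list. Aars2, Mars2, Aimp1, Lars2, Cars, Mrc1, Prg2, Epx, Siglecf, Chac1, Sesn2, the motif and the neighbours of Fars2 and Hars2 were added after their values were seen. The values of 1 member and 1 promoter match are not reported here, though both enter the counts and medians.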

Additional observations from a re-analysis of the deposited data

How the results depend on the processing

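The count of members that differed between genotypes without stimulation, 3, became 1 with an absolute log2 fold change over 1. It became 0 with the Wald statistic centred on its median and divided by its robust spread. After LPS the count of 2 likewise became 1 and 0. Adjusted p ranged over the alternatives from 0.000117 to 0.283 for Fars2, 0.0226 to 0.863 for Hars2 and 0.0245 to 0.868 for Iars2 without stimulation, and after LPS from 0.0102 to 0.369 for Fars2 and 0.00276 to 0.286 for Tars. Centring on the median of all genes gave 1 higher and 3 lower members (Aars2, Aimp1, Fars2 and Hars2), and a baseMean of at least 100 added Aars2. Of 960 values of members under alternatives 922 kept their direction and side of the threshold, 11 lost a call, 5 gained one, 22 changed sign without a call and 0 reversed. The medians of both classes moved by less than the median standard error. The cause of these changes was not tested. The alternatives were read for the members alone, so calls in the other gene lists rest on the deposited test. No paired analysis was possible because the tables hold no values per sample. Leaving out replicates, TMM scaling and a refit with edgeR were not run for the same reason. Wide errors limit most mitochondrial enzymes.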
